A study of Ixodes ricinus with 9 samples.

Results

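Glycosyl hydrolases are enzymes that cut the bonds between sugars, or between a sugar and a protein or lipid. In animal cells some trim the sugar trees of newly made glycoproteins in the endoplasmic reticulum and Golgi, others take glycoproteins, glycolipids and polysaccharides apart in lysosomes, and the chitinases cut chitin. The tick midgut digests blood inside its cells, in compartments of the lysosomal kind, and its lumen is lined by a chitin-containing peritrophic matrix. Genes were taken as glycosyl hydrolases where the protein domain annotation (Pfam) of the gene table named a glycosyl hydrolase domain, which gave 107 genes. HPB47_021555, whose domain is listed as alpha galactosidase A, an enzyme of the same class, was added by name, and the study had listed it in a carbohydrate group chosen on these same libraries. The resulting 108 genes, of 28510 in the table, fell into 14 families.

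RNA was sequenced from midguts of female Ixodes ricinus ticks that fed on bovine blood through an artificial membrane and were taken on feeding day 7. Injected dsRNA targeted antigen p23 in the first group and metalloprotease in another, and the control group received dsRNA of GFP, a jellyfish protein that ticks lack. Each of the 3 groups had 9 ticks, sequenced as 3 pooled libraries of 3 ticks apiece, so that p values measure the spread between pools. In the study's own RT-qPCR, antigen p23 was silenced in the midgut and metalloprotease only in part. The sources used here pair neither target with a gene of the table.

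Library totals ranged from 3303358 to 9430607 counts, and the glycosyl hydrolase genes took 0.625 to 0.810% of them. Only 44 and 40 glycosyl hydrolase genes had counts in antigen p23 replicates 1 and 2, against 54 to 66 in the other 7 libraries, and the same 2 libraries had the fewest genes with counts of any kind (7291 and 6294). Of 26 midgut markers, the cathepsins and legumains that digest hemoglobin, 15 had counts, led by a cathepsin L match (HPB47_012847, mean 976 FPKM). Their summed level was 2599 to 5041 CPM in the antigen p23 group, 1606 to 2820 CPM in the metalloprotease group and 1652 to 2846 CPM in the GFP control group. CPM are counts scaled to the library size, and FPKM are CPM per kilobase of coding length, the only scale on which genes are compared with each other here.

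Markers of tissues that adhere to a dissected midgut were present as well. Muscle genes were detected for 20 of 21 markers and summed to 2218 to 2638 CPM in the antigen p23 group, 857 to 3154 CPM in the metalloprotease group and 1441 to 2520 CPM in the GFP control group. Neural genes were detected for 13 of 14 markers, at 484 to 747 CPM over the 9 libraries. Cuticle proteins were detected for 47 of 99 markers, at 659 to 2046 CPM in the antigen p23 group, 325 to 2242 CPM in the metalloprotease group and 1039 to 2313 CPM in the GFP control group. Vitellogenins, yolk proteins made by fat body and midgut cells of feeding ticks, were detected for 4 of 6 markers and reached 64411 CPM. In bulk tissue, fewer cells of a type and less RNA per cell cannot be told apart, and the part of these tissues in any difference below was not tested.

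By domain family and best Swiss-Prot match, 50 of the 108 genes were chitinases or chitinase-like proteins of family 18 (15 of them by the domain alone, without a Swiss-Prot match), 37 matched lysosomal enzymes or their relatives, 10 matched enzymes that trim N-linked glycans, 5 matched cytosolic enzymes, 4 matched regulatory subunits of phosphorylase kinase and 2 matched maltase or sucrase. Of all 108 genes, 27 had no count in any library, 22 had 1 to 9 counts over all 9 libraries, and 59 had 10 or more. The genes without any count were 15 of the chitinase group, 11 of the lysosomal group and 1 of the trimming group.

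A few genes carried most of the signal. The highest 5 held 62.4% of the summed FPKM of all 108 genes, the highest 10 held 82.8% and the highest 20 held 94.8%, while the median gene was at 0.397 FPKM. The highest gene was HPB47_025954, matched to hexosaminidase D, which in mammals removes N-acetylgalactosamine in the cytosol and nucleus. It averaged 588 FPKM over the 9 libraries (range 461 to 765) and ranked 282nd among all genes. HPB47_003318 followed, matched to EDEM1, which in mammals marks misfolded glycoproteins for degradation, with a mean of 546 FPKM (255 to 770).

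The next genes came from different roles. HPB47_020797, a beta-galactosidase match, averaged 497 FPKM (173 to 797), and HPB47_007633, matched to the glucosidase MOGS that removes the outermost glucose from a new N-glycan, averaged 483 FPKM (365 to 744). HPB47_003950, matched to chitinase-3-like protein 1, averaged 453 FPKM (160 to 837). These 5 genes overlapped in range, so their order did not hold beyond the spread between libraries. HPB47_026148, the maltase-glucoamylase match, averaged 318 FPKM (217 to 382), and a second hexosaminidase D match, HPB47_025672, averaged 239 FPKM (183 to 318). HPB47_021555, GANAB match HPB47_026766 and the beta-glucuronidase match HPB47_019878 closed the highest 10 with means of 104, 102 and 77.8 FPKM. GANAB is the catalytic subunit of glucosidase II, which trims glucose from new N-glycans, and beta-glucuronidase removes glucuronic acid from polysaccharides in lysosomes.

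**Figure D1:**
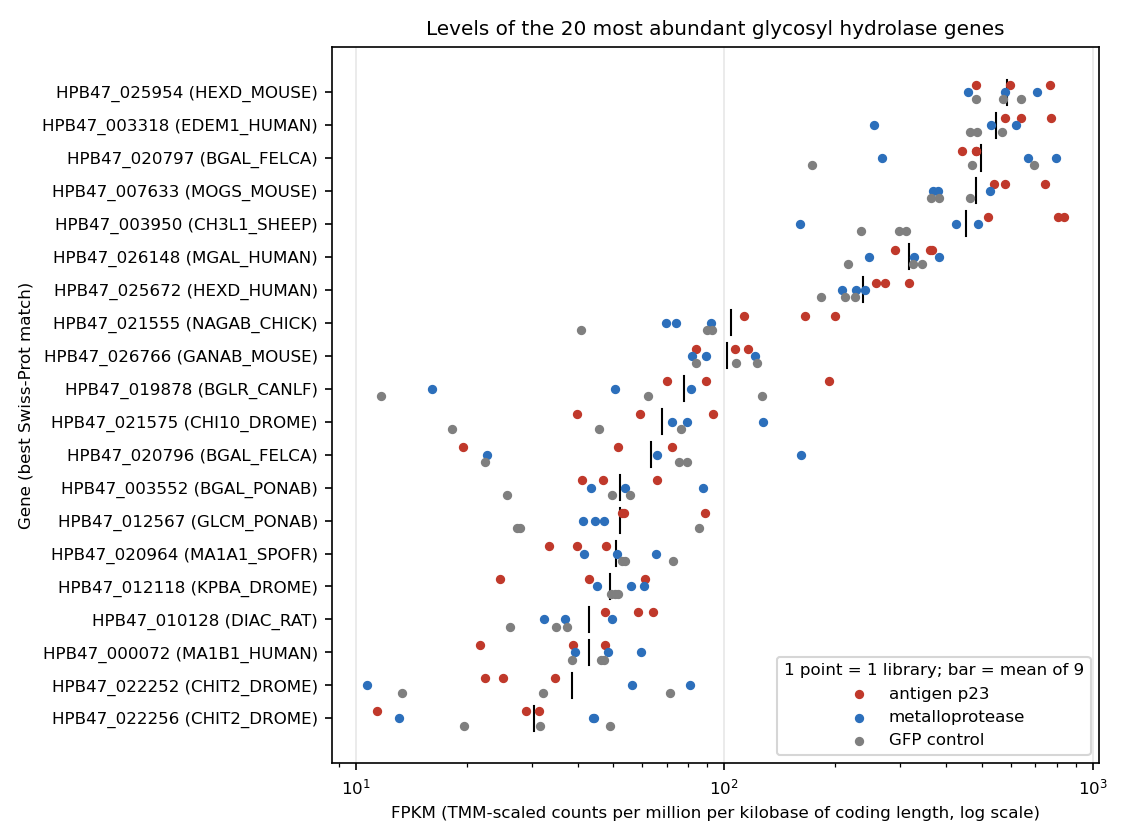
Levels of the 20 most abundant glycosyl hydrolase genes in FPKM (log axis), with 1 point per library in the antigen p23, metalloprotease and GFP control groups and a bar at the mean of 9 libraries. The first 7 genes averaged 239 FPKM or more. HPB47_003318, HPB47_007633, HPB47_003950, HPB47_025672, HPB47_021555 and HPB47_010128 show all antigen p23 points to the right of the GFP control points.

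Some abundant genes had compact gene models. The gene model of 4 of the highest 10 (HPB47_025954, HPB47_003318, HPB47_007633 and HPB47_025672) spanned at most 1.1 times its coding length, which leaves almost no room for introns, against 11 of all 108 genes and 23.7% of all genes in the table. Among the genes with counts, those compact models had a median of 49.0 FPKM (9 genes) and the longer ones 1.09 FPKM (72 genes). Over the whole table the same medians were 5.29 and 2.55 FPKM. With undetected genes included, the medians were 0.677 FPKM for compact and 0.391 FPKM for longer glycosyl hydrolase models, and 0.0 and 0.0158 FPKM over the whole table, where 27.2% of compact and 51.0% of longer models had counts. Reads of I. ricinus were aligned to the genome of I. persulcatus with Bowtie2, which does not split a read over an intron, and the part of this in the levels was not tested. Comparisons between groups use the same gene model on both sides.

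Of the 108 genes, 41 had enough counts to be tested in at least 1 comparison and 36 in all 3. They held 99.7% of the summed FPKM. None of them passed an adjusted p of 0.05 in any comparison, and the values below are given on that footing.

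After antigen p23 silencing, 39 glycosyl hydrolase genes were tested against the GFP control, and at an adjusted p of 0.05 the quasi-likelihood test of edgeR and DESeq2 each called 0 of them. Over all 6381 genes tested, edgeR called 0 (0.0%) and DESeq2 called 6. Before adjustment, 3 of the 39 genes had a p of 0.05 or less, against 3.26% of all genes tested, and all 3 stood higher (1.55% of all genes), with 0 lower (1.71% of all genes). Without HPB47_021555, whose place among the 108 genes followed from the study's own list, the count was 2 of 38. These include HPB47_003950, which is a member by its domain. The study lists HPB47_003950 in the same carbohydrate group, as higher after antigen p23 silencing, from these same libraries. The median log2 fold change was 0.11 over the 39 genes and -0.10 over all genes tested. In scaled CPM, the 3 antigen p23 pools lay above the 3 GFP control pools for 8 of the 39 genes and below them for 1, against 5.31% and 6.11% of all genes tested. Without HPB47_021555, 7 of 38 genes lay above. For some of these genes the separation depended on the scaling, as given below.

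HPB47_003950 had the smallest p of the 39. It is matched to chitinase-3-like protein 1 of sheep, a family 18 protein that in mammals binds chitin without cutting it, and lies on scaffold JABSTQ010010592.1 from 123837 to 140306 on the plus strand of the I. persulcatus assembly BIME_Iper_1.3. Its level was 502, 808 and 777 CPM in the antigen p23 pools, 155, 471 and 412 CPM in the metalloprotease pools and 288, 227 and 301 CPM in the GFP control pools. In scaled CPM all antigen p23 pools were above all others. The metalloprotease pools spread to both sides of the control, with replicate 1 the lowest of all 9. The log2 fold change of antigen p23 against GFP control was 1.35 (SE 0.29), or 2.54-fold, with adjusted p = 0.964 in edgeR. The unadjusted p was 0.05 or less in all 14 alternative fits, with log2 fold changes of 1.22 to 1.53 and adjusted p of 0.155 to 1.00. With antigen p23 replicate 3 as the only antigen p23 library, the log2 fold change was 1.51.

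HPB47_022912 is matched to lysosomal acid glucosylceramidase, which splits glucosylceramide into glucose and ceramide and is the enzyme missing in Gaucher disease. It lies on scaffold JABSTQ010009345.1 from 863084 to 896773 on the minus strand. It was a weakly expressed gene, with 89, 146 and 48 counts in the antigen p23 group, 59, 86 and 127 in the metalloprotease group and 43, 49 and 20 in the GFP control group. Scaled for library size, the antigen p23 pools had 30.8, 43.3 and 15.2 CPM, the metalloprotease pools 13.0, 25.2 and 13.7 CPM and the GFP control pools 10.1, 8.34 and 6.28 CPM. Every pool of either knockdown was above every control pool. The log2 fold change was 1.84 (SE 0.56, edgeR adjusted p = 0.964) for antigen p23 and 1.05 (SE 0.41, adjusted p = 1.00) for metalloprotease, with the control pools shared by both. With replicate 3 as the only antigen p23 library it was 0.88, and the unadjusted p was then above 0.05. A second glucosylceramidase match, HPB47_012567, which was more abundant, had 214, 127 and 129 CPM in the antigen p23 pools, 99.8, 114 and 108 CPM in the metalloprotease pools and 66.2, 67.2 and 206 CPM in the GFP control pools. There the third control pool overlapped the antigen p23 pools, and the log2 fold change was 0.47 (SE 0.49).

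HPB47_021555 is matched to alpha-N-acetylgalactosaminidase of chicken, a lysosomal enzyme that removes terminal alpha-linked N-acetylgalactosamine from glycoproteins and glycolipids. It lies on scaffold JABSTQ010009206.1 from 36376 to 70671 on the minus strand. Its level was 185, 326 and 271 CPM in the antigen p23 pools, 151, 113 and 120 CPM in the metalloprotease pools and 146, 66.5 and 152 CPM in the GFP control pools. In scaled CPM the antigen p23 pools were above the other 6, although the lowest of them exceeded the highest control pool by little. As a share of unscaled counts, antigen p23 replicate 1 lay below metalloprotease replicate 1 (533 of 3636541 against 686 of 3892337). The log2 fold change was 1.098 (SE 0.38, edgeR adjusted p = 0.964) against GFP control. Its unadjusted p was 0.05 or less in 11 of 14 alternative fits, with log2 fold changes of 0.82 to 1.29 over the 14. The fits above 0.05 included those without antigen p23 replicate 2 (log2 fold change 0.90) and without replicate 3 (1.06). With replicate 3 as the only antigen p23 library, the log2 fold change was 1.16. Another gene with the same match, HPB47_025230, was weakly expressed and had its antigen p23 pools below the control pools. It had 5.89, 5.34 and 5.38 CPM in the antigen p23 pools and 6.60, 5.95 and 10.4 CPM in the GFP control pools.

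The following models on that scaffold, HPB47_021556 and HPB47_021557, are matched to alpha-galactosidase A, the related enzyme that removes terminal alpha-linked galactose. HPB47_021556 had 0 to 6 counts in a library. HPB47_021557 had 197, 99.3 and 73.0 CPM in the antigen p23 pools, 19.6, 68.6 and 60.2 CPM in the metalloprotease pools and 105, 22.6 and 93.5 CPM in the GFP control pools. Its groups overlapped in the comparison with the control, with a log2 fold change of 0.75 (SE 0.58). Its antigen p23 pools were above the metalloprotease pools, with a log2 fold change of 1.33 (SE 0.55) between the knockdowns. How reads shared by such similar genes were counted is not given in the sources used here.

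HPB47_013911, matched to the alpha subunit of beta-hexosaminidase, which in mammals removes N-acetylgalactosamine from the ganglioside GM2, lies on scaffold JABSTQ010002167.1 from 739 to 66567 on the minus strand. It had 11.4, 51.0 and 40.2 CPM in the antigen p23 pools, 0.440, 55.7 and 14.4 CPM in the metalloprotease pools and 13.7, 18.9 and 5.96 CPM in the GFP control pools. The groups overlapped, and metalloprotease replicate 1 held only 2 counts of this gene. Among the 31 genes with a mean of 10 FPKM or more it varied most over the 9 libraries after HPB47_027020, with a coefficient of variation of 85.8%. The log2 fold change of antigen p23 against GFP control was 1.38 (SE 0.66, edgeR adjusted p = 0.964).

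**Figure D2:**
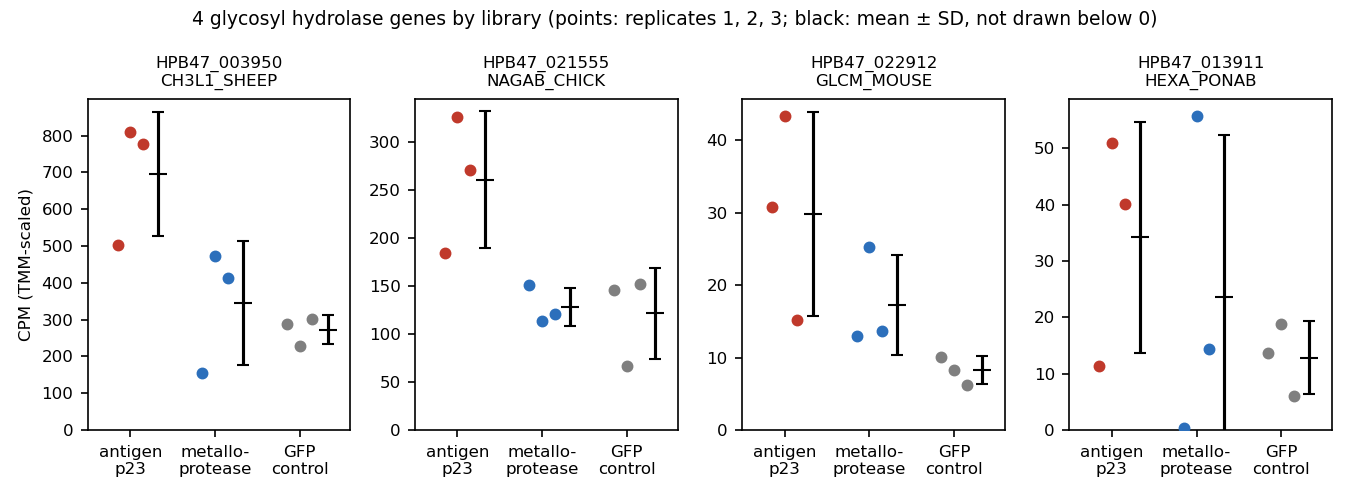
Level of HPB47_003950, HPB47_021555, HPB47_022912 and HPB47_013911 in CPM, with 1 point per library for the antigen p23, metalloprotease and GFP control groups and the mean ± SD in black (an SD bar that would pass below 0 ends there). The antigen p23 points lie above the GFP control points for the first 3 genes and overlap them for HPB47_013911, where the metalloprotease points run over 0.440 to 55.7 CPM.

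Among the roles, the lysosomal matches had the highest median log2 fold change after antigen p23 silencing. Of 37 such genes 12 were tested, 10 with a positive and 2 with a negative log2 fold change, and the median was 0.80. At an unadjusted p of 0.05 or less, 2 of the 12 (HPB47_022912 and HPB47_021555) stood higher and 0 lower, against 1.55% and 1.71% of all genes tested. Without HPB47_021555, which the study had listed from these libraries, the count was 1 of 11 and the median 0.78. HPB47_010128, matched to di-N-acetylchitobiase, which splits the core of N-glycans in lysosomes, had 35.3, 47.7 and 43.3 CPM in the antigen p23 pools and 27.8, 19.6 and 26.1 CPM in the GFP control pools. Those pools did not overlap, at a log2 fold change of 0.78 (SE 0.39). The beta-glucuronidase matches HPB47_019876 and HPB47_019878 had overlapping pools, at log2 fold changes of 0.96 (SE 0.66) and 0.82 (SE 0.72). HPB47_021721, matched to lysosomal alpha-mannosidase, was 1 of the 2 negative genes, at -0.63 (SE 0.50).

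Summed levels of the lysosomal matches overlapped between groups. They averaged 1561 ± 70.1 CPM in the antigen p23 pools, 1452 ± 496 CPM in the metalloprotease pools and 1233 ± 613 CPM in the GFP control pools (SD, n = 3). GFP control replicate 2 was low, at 574 CPM, against 1340 and 1786 CPM in GFP control replicates 1 and 3. The part of this library in the median of the role was not tested. The most abundant member set much of this sum: HPB47_020797, the beta-galactosidase match, had 669, 730 and 728 CPM in the antigen p23 pools, 404, 1007 and 1203 CPM in the metalloprotease pools and 711, 261 and 1045 CPM in the GFP control pools. Its antigen p23 pools lay within the range of the control, with a log2 fold change of 0.08 (SE 0.43).

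HPB47_020797 is the last of 5 neighbouring beta-galactosidase models, HPB47_020793 to HPB47_020797, on scaffold JABSTQ010009147.1. The first 2 of the 5 had 2 counts each over all 9 libraries. HPB47_020795 had 0, 37 and 27 counts in the antigen p23 group, 2, 12 and 8 in the metalloprotease group and 45, 0 and 0 in the GFP control group, so that the antigen p23 and GFP control groups both held pools without a count. HPB47_020796 had 30.5, 11.6 and 42.7 CPM in the antigen p23 pools, 13.4, 95.6 and 38.8 CPM in the metalloprotease pools and 44.5, 13.3 and 46.8 CPM in the GFP control pools. The models thus differed in which pools were high. In the same way, of the 3 neighbouring beta-glucuronidase models the middle one, HPB47_019877, had 7 counts in all, against 1071 for HPB47_019876 and 2622 for HPB47_019878. In all, 26 of the 108 genes lay in 9 such runs of neighbours.

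Among the genes that trim N-glycans, 10 in all, 8 were tested after antigen p23 silencing, 3 with a positive and 5 with a negative log2 fold change, and none had an unadjusted p of 0.05 or less. HPB47_007633, the MOGS match, had 1828, 1324 and 1419 CPM in the antigen p23 pools, 905, 1293 and 938 CPM in the metalloprotease pools and 896, 1141 and 941 CPM in the GFP control pools. In scaled CPM the antigen p23 pools were above the other 6, and the log2 fold change against the control was 0.61 (SE 0.27, edgeR adjusted p = 0.964). HPB47_003318, the EDEM1 match, had 1575, 1313 and 1187 CPM in the antigen p23 pools and 1163, 950 and 994 CPM in the GFP control pools, which did not overlap either, at a log2 fold change of 0.38 (SE 0.26).

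The mannosidases of this role had values on both sides of 0, none with an unadjusted p of 0.05 or less. HPB47_020964, matched to a Golgi alpha-1,2-mannosidase, had 72.4, 61.1 and 87.3 CPM in the antigen p23 pools and 132, 95.9 and 97.9 CPM in the GFP control pools. It was the 1 of the 39 genes tested in this comparison whose antigen p23 pools were all below the control pools, and its log2 fold change was -0.57 (SE 0.32). HPB47_028037, matched to Golgi alpha-mannosidase 2, and HPB47_000072, matched to the mannosidase MAN1B1 of the endoplasmic reticulum, had -0.47 (SE 0.41) and -0.30 (SE 0.38) with overlapping pools. Matches of EDEM2 and EDEM3, relatives of EDEM1, also overlapped, at 0.55 (SE 0.42) for HPB47_015067 and -0.29 (SE 0.46) for HPB47_028248. HPB47_026766, the catalytic subunit of glucosidase II, was the steadiest gene of the group, at 329, 238 and 303 CPM in the antigen p23 pools and 305, 237 and 348 CPM in the GFP control pools (log2 fold change -0.04, SE 0.28). The normal 95% interval of that difference ran from -0.59 to 0.51.

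The chitinases and chitinase-like proteins had a negative median. Of 50 genes 11 were tested after antigen p23 silencing, 4 with a positive and 7 with a negative log2 fold change, and the median was -0.48. HPB47_003950 was the most abundant of them. The summed level was 989 ± 216 CPM in the antigen p23 pools, 753 ± 283 CPM in the metalloprotease pools and 629 ± 58.2 CPM in the GFP control pools (SD, n = 3). Of these, HPB47_003950 averaged 696 ± 169 CPM in the antigen p23 pools, 346 ± 168 CPM in the metalloprotease pools and 272 ± 39.3 CPM in the GFP control pools. In scaled CPM, HPB47_002232, matched to the fly chitinase 2, was the other tested chitinase whose antigen p23 pools were all above the control. It had 19.7, 27.3 and 15.2 CPM in the antigen p23 pools and 5.89, 14.6 and 12.2 CPM in the GFP control pools (log2 fold change 0.91, SE 0.57).

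Some chitinase genes with negative values were low in antigen p23 replicates 1 and 2, the libraries that detected few genes. HPB47_019036, matched to human chitotriosidase, a chitin-cutting enzyme of macrophages, had 11, 0 and 53 counts in the antigen p23 group, 100, 30 and 179 in the metalloprotease group and 78, 176 and 34 in the GFP control group. HPB47_005406, matched to oviduct-specific glycoprotein, a chitinase-like protein of mammals, had 2.77, 4.45 and 32.9 CPM in the antigen p23 pools, 7.25, 7.04 and 29.5 CPM in the metalloprotease pools and 25.7, 39.3 and 12.2 CPM in the GFP control pools. In both genes antigen p23 replicate 3 lay within the range of the control pools. Their log2 fold changes were -1.55 (SE 1.16) and -0.97 (SE 0.90). HPB47_020474, a match of chitinase-3-like protein 1, had too few counts for a test in this comparison. It had 0, 3 and 1 counts in the antigen p23 group, 4, 7 and 54 in the metalloprotease group and 10, 31 and 13 in the GFP control group. All its antigen p23 pools were below the control pools. The study lists HPB47_020474 as lower after antigen p23 silencing, from these same libraries, so its direction here is no independent evidence.

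HPB47_027020, a second match of chitinase-3-like protein 1, had the most negative log2 fold change of the tested genes, -2.36 (SE 1.40), and this came from 1 control library. It had 5, 28 and 22 counts in the antigen p23 group, 78, 9 and 1 in the metalloprotease group and 5, 477 and 7 in the GFP control group. Without GFP control replicate 2, the log2 fold change was 1.75. That library held 75.5% of all counts of the gene.

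The remaining roles held few genes. The hexosaminidase D match HPB47_025672 had 379, 443 and 360 CPM in the antigen p23 pools, 291, 318 and 336 CPM in the metalloprotease pools and 254, 297 and 315 CPM in the GFP control pools. In scaled CPM the antigen p23 pools were above the other 6, with a log2 fold change of 0.44 (SE 0.26) against the control. The more abundant HPB47_025954 had 1333, 1037 and 844 CPM in the antigen p23 pools and 843, 996 and 1116 CPM in the GFP control pools, with a log2 fold change of 0.11 (SE 0.28). Regulatory subunits of phosphorylase kinase, an enzyme that switches on glycogen breakdown, share a domain with glucoamylases. Of their 4 genes 3 were tested, with log2 fold changes of -0.25 (SE 0.36) for HPB47_012118, -0.85 (SE 1.22) for HPB47_007215 and -1.54 (SE 1.09) for HPB47_010745. The maltase-glucoamylase match HPB47_026148 had 669, 835 and 844 CPM in the antigen p23 pools and 749, 500 and 794 CPM in the GFP control pools (log2 fold change 0.19, SE 0.28).

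**Figure D3:**
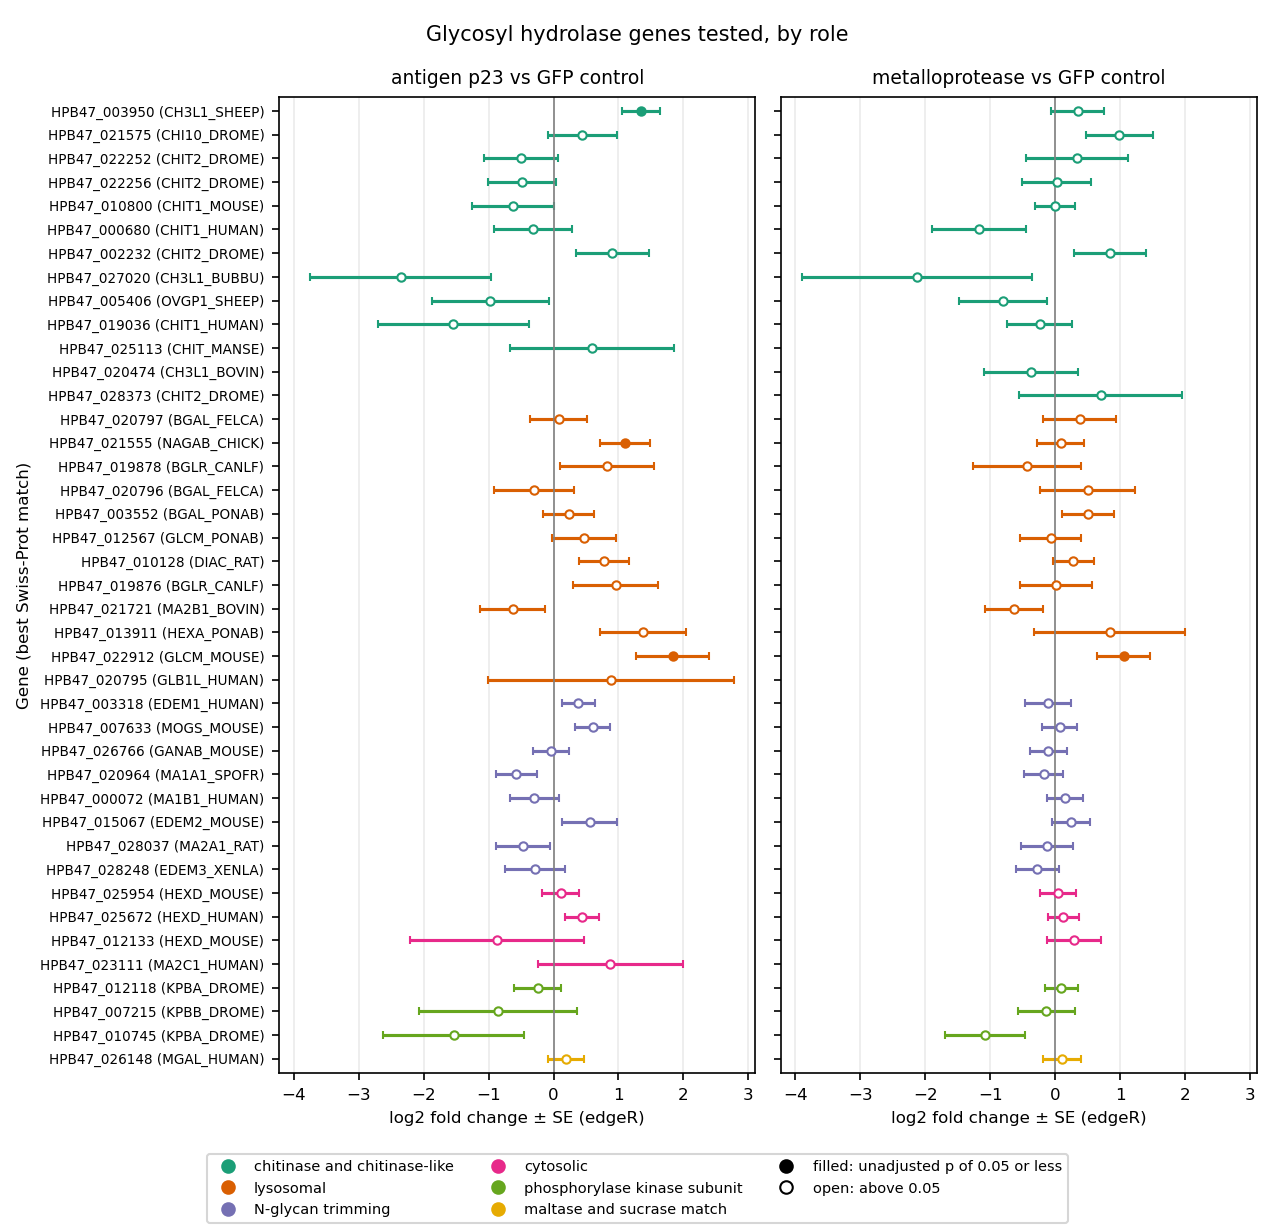
Log2 fold change ± SE from edgeR of the tested glycosyl hydrolase genes for antigen p23 (left) and metalloprotease (right) against GFP control, grouped by role. Filled points have an unadjusted p of 0.05 or less: HPB47_003950, HPB47_021555 and HPB47_022912 on the left, and HPB47_022912 on the right.

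Over all 108 genes, the summed level was 8409 ± 337 CPM in the antigen p23 pools, 7077 ± 1535 CPM in the metalloprotease pools and 6670 ± 877 CPM in the GFP control pools (SD, n = 3). The antigen p23 libraries ran from 8094 to 8765 CPM and the GFP control libraries from 5775 to 7527 CPM, without overlap. This separation depended on the scaling. As a share of unscaled counts, the antigen p23 libraries had 0.696, 0.810 and 0.775% and the GFP control libraries 0.670, 0.725 and 0.725%, which overlapped. The same scaling entered the values of single genes, with factors from 0.794 (antigen p23 replicate 1) to 1.26 (GFP control replicate 2). In unscaled shares, the antigen p23 pools of HPB47_002232, HPB47_003318, HPB47_007633 and HPB47_025672 overlapped the control pools. Those of HPB47_003950 stayed above the control pools and overlapped the metalloprotease pools.

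Metalloprotease silencing was tested on 38 glycosyl hydrolase genes against the GFP control, and at an adjusted p of 0.05 edgeR and DESeq2 each called 0 of them, and each 0 (0.0%) of all genes tested, 6786 in edgeR. Before adjustment, 1 of the 38 had a p of 0.05 or less, against 1.43% of all genes tested, and it stood higher (0.737% of all genes), with 0 lower (0.693% of all genes). The 1 gene was HPB47_022912, the glucosylceramidase match described above, and it was also the only 1 of the 38 whose metalloprotease pools were all above the control pools, against 2.67% of all genes tested. None had all metalloprotease pools below the control, against 2.9% of all genes tested. The unadjusted p of HPB47_022912 was 0.05 or less in 8 of 13 alternative fits, and above it without metalloprotease replicate 2 (log2 fold change 0.69), GFP control replicate 2 (1.07) or GFP control replicate 3 (0.91), with all 9 libraries in 1 fit (1.06) and with the replicate block (1.03). The median log2 fold change was 0.06 over the 38 genes and -0.00 over all genes tested.

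The genes next in p after metalloprotease silencing had overlapping pools. HPB47_021575, matched to the fly chitinase 10, had 151, 267 and 166 CPM in the metalloprotease pools and 38.4, 96.3 and 160 CPM in the GFP control pools, with a log2 fold change of 0.99 (SE 0.52, edgeR adjusted p = 1.00). HPB47_000680, matched to human chitotriosidase, had 4.83, 24.1 and 12.1 CPM in the metalloprotease pools and 29.0, 10.04 and 53.0 CPM in the GFP control pools, with a log2 fold change of -1.17 (SE 0.72). HPB47_010745, a phosphorylase kinase subunit match, had a log2 fold change of -1.08 (SE 0.62). HPB47_003552, a further beta-galactosidase match, had 65.9, 133 and 81.9 CPM in the metalloprotease pools and 75.4, 38.96 and 84.4 CPM in the GFP control pools, with a log2 fold change of 0.50 (SE 0.40). Of the abundant genes, MOGS match HPB47_007633 (0.07, SE 0.27), EDEM1 match HPB47_003318 (-0.11, SE 0.35) and HPB47_025954 (0.05, SE 0.28) had log2 fold changes near 0.

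Within the metalloprotease group, replicate 1 stood low for several abundant genes. It held 522 CPM of HPB47_003318, against 1266 and 1088 CPM in replicates 2 and 3, and 404 CPM of HPB47_020797, against 1007 and 1203 CPM. Muscle markers summed to 857 CPM in that library, the lowest of all 9. HPB47_003950 had a log2 fold change of 0.35 (SE 0.41, edgeR adjusted p = 1.00) with this library and 0.70 without it, at an unadjusted p below 0.05, where adjusted p was 0.986 to 1.00 over all alternative fits.

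**Figure D4:**
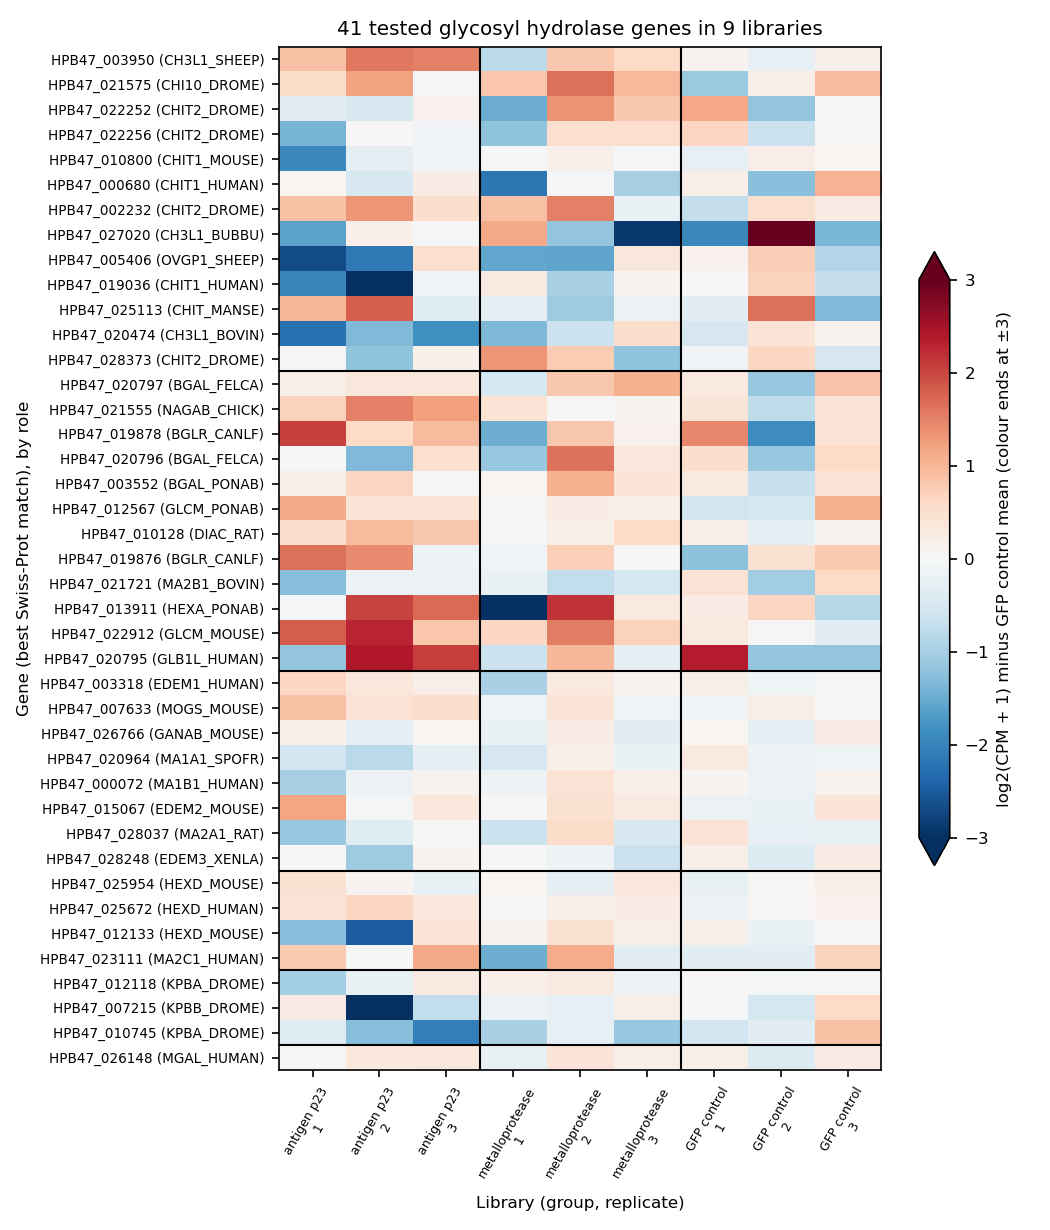
Level of the 41 tested glycosyl hydrolase genes in each of 9 libraries, as log2(CPM + 1) minus the mean of the GFP control libraries, with the libraries of antigen p23, metalloprotease and GFP control from left to right and the genes grouped by role. Red is above and blue below the control mean. The row of HPB47_022912 is red in all 6 knockdown libraries, and metalloprotease replicate 1 and GFP control replicate 2 each have only 15 of 41 genes above the control mean.

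Between the 2 knockdowns, 38 glycosyl hydrolase genes were tested and at an adjusted p of 0.05 edgeR and DESeq2 each called 0 of them. Over all 6383 genes tested, edgeR called 0 (0.0%) and DESeq2 called 21. Before adjustment, 2 of the 38 had a p of 0.05 or less, against 2.57% of all genes tested, and both were higher in the antigen p23 group (1.05% of all genes), with 0 lower (1.52% of all genes). Without HPB47_021555 the count was 1 of 37, and the gene left, HPB47_003950, is in the study's carbohydrate group as well. The 2 genes were HPB47_021555, with a log2 fold change of 1.02 (SE 0.32), and HPB47_003950, with 1.01 (SE 0.42), both at an adjusted p of 0.998 from edgeR. Without antigen p23 replicate 2, the unadjusted p of both genes exceeded 0.05, as did that of HPB47_003950 without antigen p23 replicate 3, without metalloprotease replicate 1 or without antigen p23 replicates 1 and 2. HPB47_022912 had 0.79 (SE 0.55), and its interval, from -0.29 to 1.88, covered 0. The antigen p23 pools lay above the metalloprotease pools for 5 of the 38 genes (HPB47_003950, HPB47_007633, HPB47_012567, HPB47_021555 and HPB47_025672) and below them for 1, the chitotriosidase match HPB47_010800, against 3.68% and 5.04% of all genes tested. Without HPB47_021555, 4 genes lay above.

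The beta-glucuronidase matches had the next values in that comparison. HPB47_019878 had 187, 67.9 and 86.6 CPM in the antigen p23 pools and 15.6, 79.2 and 49.1 CPM in the metalloprotease pools, with a log2 fold change of 1.26 (SE 0.61, edgeR adjusted p = 0.998). HPB47_019876 had 62.0, 52.8 and 17.1 CPM in the antigen p23 pools and 17.6, 31.7 and 19.2 CPM in the metalloprotease pools, with 0.96 (SE 0.56). In both genes the pools overlapped.

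Genes that work beside the glycosyl hydrolases were read from the same fits. Of 30 partners of the lysosome and of sphingolipid breakdown, 13 were tested after antigen p23 silencing, and 2 stood higher and 0 lower at an unadjusted p of 0.05 or less, against 1.55% and 1.71% of all genes tested. These were HPB47_001419, matched to the cholesterol exporter NPC1, with 816 ± 272 CPM in the antigen p23 pools and 289 ± 145 CPM in the GFP control pools (log2 fold change 1.47, SE 0.42), and HPB47_022944, matched to sphingomyelin phosphodiesterase, which frees ceramide from sphingomyelin, with 513 ± 145 CPM in the antigen p23 pools and 306 ± 65.4 CPM in the GFP control pools (0.74, SE 0.32). The median over the 13 was 0.50. After metalloprotease silencing 0 of 14 had an unadjusted p of 0.05 or less. Between the knockdowns 2 of 13 stood higher in the antigen p23 group, against 1.05% of all genes tested, namely HPB47_001419 (1.72, SE 0.40) and a further NPC1 match, HPB47_006008 (1.71, SE 0.63). HPB47_006008 overlapped the control, with 40193, 17209 and 29846 CPM in the antigen p23 pools and 25856, 1362 and 15244 CPM in the GFP control pools. Another NPC1 match, HPB47_026934, was lower in most antigen p23 pools, with 12.1, 11.0 and 93.6 CPM there and 110, 130 and 36.7 CPM in the GFP control pools.

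Of 23 genes of N-glycan assembly and glycoprotein folding, 16 were tested after antigen p23 silencing. Their median was 0.16, with 0 genes at an unadjusted p of 0.05 or less. After metalloprotease silencing 1 of 17 stood lower, against 0.693% of all genes tested. It was HPB47_010658, matched to ALG13, which adds the second sugar of the glycan precursor (-1.14, SE 0.41). The study lists this gene as lower after metalloprotease silencing, from these same libraries. Of 52 genes of chitin synthesis, deacetylation and binding, 23 were tested after antigen p23 silencing, with a median of -0.22. At an unadjusted p of 0.05 or less 1 stood lower, against 1.71% of all genes tested. It was HPB47_015502, a chitin-binding peritrophin domain protein, with 4.96 ± 8.31 CPM in the antigen p23 pools and 83.9 ± 80.7 CPM in the GFP control pools. Its pools overlapped, at 14.6, 0 and 0.316 CPM in the antigen p23 group and 1.41, 87.8 and 163 CPM in the GFP control group. The metalloprotease pools of HPB47_015502 had 51.6, 516 and 15.3 CPM. Between the knockdowns 24 genes of this list were tested, and 1 stood higher and 3 lower in the antigen p23 group, against 1.05% and 1.52% of all genes tested. The 3 were HPB47_015502 and the chitin synthase matches HPB47_011812 and HPB47_011813, enzymes that build the polymer. HPB47_011813 had 0, 4.45 and 6.01 CPM in the antigen p23 pools, 10.1, 71.3 and 37.7 CPM in the metalloprotease pools and 4.71, 10.2 and 26.1 CPM in the GFP control pools. HPB47_011812 had 0, 0 and 3.16 CPM in the antigen p23 pools, 8.13, 35.2 and 16.8 CPM in the metalloprotease pools and 1.65, 4.76 and 11.6 CPM in the GFP control pools. The values of 0 came from antigen p23 replicates 1 and 2, which detected few genes. The metalloprotease pools were on average above the control, with log2 fold changes of 1.54 (SE 0.81) and 1.75 (SE 0.77). The study lists both chitin synthase matches as higher after metalloprotease silencing, from these same libraries. Of 77 other glycosidases and sulfatases, 15 were tested after antigen p23 silencing, with a median of -0.14 and 0 genes at an unadjusted p of 0.05 or less. Between the knockdowns 1 of 15 from this list, HPB47_021557, stood higher in the antigen p23 group and 0 lower, against 1.05% and 1.52% of all genes tested. None of these genes passed an adjusted p of 0.05 in edgeR, whose smallest over the lists was 0.964 after antigen p23 silencing, 1.00 after metalloprotease silencing and 0.998 between the knockdowns.

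The carbohydrate group that the study lists as higher after antigen p23 silencing holds HPB47_021555, HPB47_003950 and HPB47_013911. The other 2 genes of this group are no glycosyl hydrolases by domain. HPB47_020144, without a Swiss-Prot match, averaged 152 ± 158 CPM in the antigen p23 pools and 47.2 ± 32.8 CPM in the GFP control pools (log2 fold change 1.66, SE 0.77). HPB47_017917, matched to 6-phosphogluconolactonase, an enzyme of the pentose phosphate pathway, averaged 29.5 ± 24.6 CPM in the antigen p23 pools and 10.7 ± 3.00 CPM in the GFP control pools (1.46, SE 0.71). As the study chose this group on these libraries, its direction is no independent evidence.

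Of the 81 genes with counts, 40 had too few for any test, and their counts were unevenly spread over the libraries. Summed over these 40 genes, the antigen p23 libraries held 22, 27 and 52 counts, the metalloprotease libraries 126, 47 and 190 and the GFP control libraries 54, 295 and 157. GFP control replicate 2 held 30.4% of these counts, although it made up 11.9% of all counts of the series, and was the highest library by CPM for 13 of the 40 genes. The antigen p23 libraries, at 8.37 to 9.21% of all counts of the series, held 2.27 to 5.36% of them. Over the whole table, antigen p23 replicates 1 and 2 had 1625 and 661 genes at 1 to 9 counts, against 2581 to 3280 genes in the other 7 libraries.

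Single libraries held many of the larger counts. HPB47_010036, a family 18 gene without a match, had 45 counts in GFP control replicate 2 and 0 in every other library, which allows up to 3 counts in each by counting error alone. HPB47_012446, a phosphorylase kinase subunit match, had 48 of its 68 counts in that library, and HPB47_005212, matched to the fly chitinase 2, 25 of 44. HPB47_022556, matched to heparanase, which cuts heparan sulfate, had 27 of its 53 counts there and 19 in metalloprotease replicate 1. HPB47_025111, matched to the endochitinase of the moth Manduca sexta, had 57 counts in metalloprotease replicate 3 and 101 in GFP control replicate 3, and 0 to 4 in the other 7. Its neighbour HPB47_025112 had 34 of 58 counts in GFP control replicate 2, so that adjacent models were high in different libraries. HPB47_005741, matched to the acidic chitinase of rat, had 20 of its 52 counts in GFP control replicate 2. HPB47_006405, matched to a cytosolic endo-beta-N-acetylglucosaminidase, which frees glycans from proteins, was more even, with 0, 9 and 14 counts in the antigen p23 group, 12, 6 and 22 in the metalloprotease group and 7, 12 and 4 in the GFP control group.

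**Figure D5:**
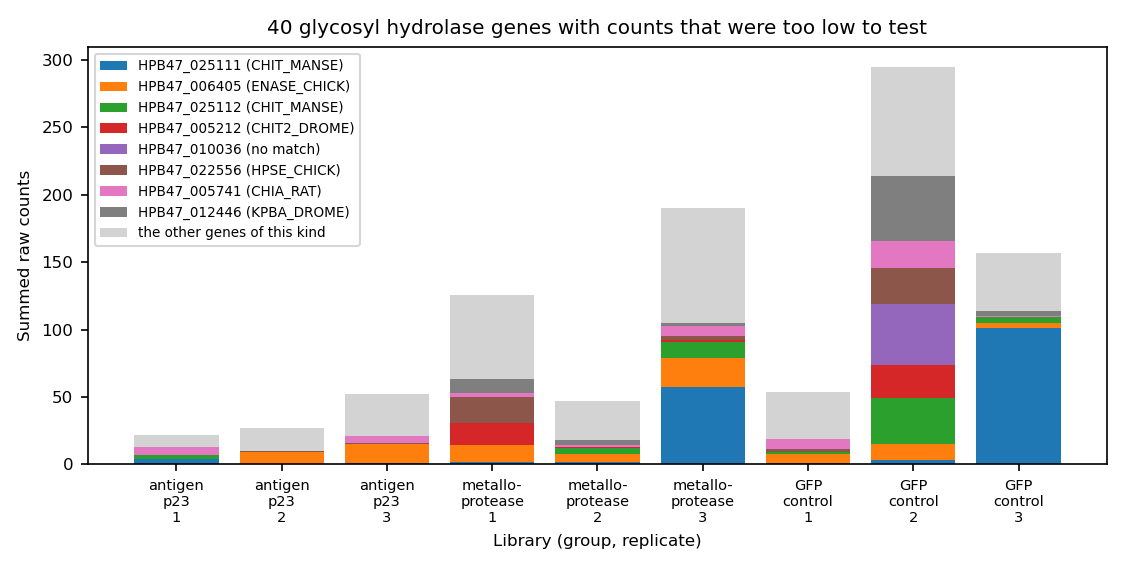
Summed raw counts, not scaled for library size, of the 40 glycosyl hydrolase genes that were too low to test, by library, with the genes that reached 20 counts in a library in colour. GFP control replicate 2 stands highest at 295 counts and antigen p23 replicates 1 and 2 lowest at 22 and 27.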

How the data were processed

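Whole-number gene counts were deposited by the authors, who aligned the reads of 9 I. ricinus midgut libraries to the I. persulcatus genome (BIME_Iper_1.3) with Bowtie2 2.5.3 and counted them per gene with featureCounts. Its version, its strand setting and how it treated multi-mapping reads: not given in the sources used here. From these counts, CPM (with TMM scaling) and FPKM (per kilobase of coding length) were computed here. Each pair of groups was compared with edgeR 4.0.16 in R 4.3.3 (filterByExpr, TMM, robust quasi-likelihood test, Benjamini-Hochberg adjustment over all genes tested), on the 6 libraries of that pair. The alternatives were DESeq2 1.42.0 and its size factors, other count filters, 1 fit over 9 libraries, non-robust dispersions, a replicate block and leaving out each library. Figures were drawn with matplotlib 3.10.9. The fits were tested on simulated data.

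The 108 genes, the markers and the lists of other genes were chosen with earlier results of these data known. The text names HPB47_021555, HPB47_003950, HPB47_022912 and HPB47_013911, the 10 most abundant genes, the 10 genes with the smallest p in each comparison, untested genes with 20 or more counts in a library, neighbours of these, the other genes of the study's carbohydrate group, and up to 3 genes per list and comparison. HPB47_000072, HPB47_007215, HPB47_010800, HPB47_012118, HPB47_015067, HPB47_019036, HPB47_020474, HPB47_028037 and HPB47_028248 fall outside this rule and were chosen after their values were seen. Roles come from the domain family and, where the table has one, the Swiss-Prot match. Library totals of 3303358 to 9430607 counts limit the precision for genes with few counts.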

Additional observations from a re-analysis of the deposited data

How the results depend on the processing

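No glycosyl hydrolase gene passed an adjusted p of 0.05 in any comparison under any alternative. Over all genes tested, antigen p23 against GFP control gave 0 calls, against 5 without a filter on low counts and 6 with DESeq2, and antigen p23 against metalloprotease gave 0, against 16 without a filter, 1 with at least 10 counts in every library, 1 with the replicate block and 21 with DESeq2. Leaving out 1 library gave 0 to 0 calls in each comparison. The number of glycosyl hydrolase genes at an unadjusted p of 0.05 or less for antigen p23 against GFP control was 3, against 8 without a filter (4 higher, 4 lower), 6 with all 9 libraries in 1 fit (5 higher, 1 lower), 6 with DESeq2 (4 higher, 2 lower) and 3 to 6 without 1 library. For metalloprotease against GFP control it was 1, against 2 without a filter, 0 with all 9 libraries in 1 fit, 2 with DESeq2 and 0 to 2 without 1 library. For antigen p23 against metalloprotease it was 2, against 6 without a filter (3 higher, 3 lower) and 0 to 3 without 1 library. The shares of all genes at that p under the alternatives are not given here. The counts under the alternatives therefore do not show more or fewer glycosyl hydrolase genes than among all genes. With antigen p23 replicates 1 and 2 left out, an alternative chosen after seeing the data in which the lone library is assumed to vary like the other group, these numbers were 4 (antigen p23 against GFP control) and 1 (antigen p23 against metalloprotease).

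Same-numbered libraries did not deviate together (correlations of -0.16 to -0.05 for antigen p23 and GFP control, -0.47 to 0.10 for metalloprotease and GFP control, -0.11 to 0.07 for antigen p23 and metalloprotease), so the numbers do not pair the pools. With the replicate number as a block, 4, 0 and 2 glycosyl hydrolase genes had an unadjusted p of 0.05 or less in these comparisons, again without the share of all genes beside them.

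Of 456 alternative values of 34 gene results, 448 kept their direction and their side of the adjusted threshold and 8 changed sign. HPB47_027020 against GFP control had 1.75 after antigen p23 silencing and 1.99 after metalloprotease silencing without GFP control replicate 2 (ranges -2.93 to 1.75 and -4.68 to 1.99 without 1 library). HPB47_013911 had -0.75 for metalloprotease against GFP control without metalloprotease replicate 2 (range -0.75 to 1.42) and -0.026 for antigen p23 against metalloprotease without metalloprotease replicate 1 (range -0.026 to 2.16). HPB47_021555 had -0.05 and -0.20 for metalloprotease against GFP control without metalloprotease replicate 1 and GFP control replicate 2 (range -0.20 to 0.27). Without antigen p23 replicates 1 and 2, HPB47_019876 had -0.42 and HPB47_022912 -0.19 for antigen p23 against metalloprotease. Apart from the libraries left out, the cause was not tested.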
